A study of Sus scrofa with 23 samples.

Results

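The 10 genes described here encode 8 aquaporins (AQP1, AQP2, AQP3, AQP4, AQP5, AQP6, AQP7 and AQP11) and the vasopressin receptors AVPR2 and AVPR1A, out of 26687 genes quantified in the series. They were chosen by name, with genotype results of these libraries already known, and no measured value decides membership. RNA came from the kidney cortex of newborn pigs and was sequenced as a stranded library after depletion of ribosomal RNA. By label, 11 libraries are CF (genotype CFTR-/-), another 6 are HET (CFTR+/-) and 6 are WT (CFTR+/+), each from another pig, and the study set CF against non-CF, which joins HET and WT (n = 12). No treatment distinguishes the groups. According to the study's methods, piglets came from matings of CFTR+/- pigs and were studied soon after birth. The targeted allele, the sex and the litter of each pig are not given in the sources used here.

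Aquaporins are membrane channels that let water cross epithelia along osmotic gradients, and the aquaglyceroporins among them, AQP3 and AQP7, also pass glycerol. In the kidney, AQP1 serves bulk water reabsorption in the proximal tubule and thin descending limb, while the collecting duct sets the final urine volume. There vasopressin binds AVPR2, which raises cAMP through the stimulatory G protein, and protein kinase A then drives vesicles carrying AQP2 to the apical membrane. Water leaves the cell through AQP3 and AQP4 on the basolateral side. AVPR1A is the calcium-coupled vasopressin receptor known from vascular smooth muscle.

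The study asked whether CFTR, an epithelial anion channel, itself regulates metabolism in several organs of newborn pigs. Kidney cortex RNA was examined there as a follow-up to impaired renal reabsorption of amino acids. Libraries held 32901281 to 52952273 estimated counts. A limit of 3 counts then corresponds to 0.0567 to 0.0912 CPM before TMM scaling, for counting error only. CFTR RNA itself ran from 1.27 to 3.67 CPM in the libraries labelled WT, from 9.41 to 17.5 CPM in those labelled HET and from 12.5 to 23.5 CPM in those labelled CF. It was thus higher, not lower, with each disrupted allele named in the label, and the groups are called below by their labels. Whether each label is right was not tested. The study grouped as many pigs as CF and as non-CF as the labels do, which cannot show whether a library matches its label. If the CF and WT labels were exchanged, directions between CF and WT would turn, and CF against non-CF would hold other libraries. CPM here are estimated counts relative to library size after TMM scaling, which adjusts for differences in composition between libraries. Pig numbers in the labels fall into number set A (1 to 6 and 12 to 18, 13 libraries) and number set B (7 to 11 and 19 to 23, 10 libraries). The sets were first seen as a gap between libraries in an earlier analysis of these data, and the labels do not say what a number stands for. Each set holds libraries of all 3 labels. All 10 genes passed the filter on low counts.

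The genes lie on 6 chromosomes of the Sscrofa11.1 assembly. AQP1 is at chr18:42063482-42076741 on the minus strand, 13245273 bases from CFTR on the same chromosome. AQP2 (chr5:15862739-15868565), AQP5 (chr5:15876527-15879608) and AQP6 (chr5:15888080-15892113) stand in a row on the plus strand. AQP3 (chr10:33045374-33050285) and AQP7 (chr10:33098746-33130245) are near each other on the plus strand. AQP4 is at chr6:111407632-111422169 (minus strand) and AQP11 at chr9:12065550-12076339 (plus strand). AVPR2 is at chrX:124638433-124640969 (plus strand) and AVPR1A at chr5:27824991-27832794 (minus strand). AQP7 overlaps NFX1, and AVPR1A overlaps the long noncoding RNA LOC110260693, both on the opposite strand.

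The bases just before the annotated start are shown for AQP6, which was higher in CF than in WT libraries at an unadjusted p under 0.05. The window holds 250 bases, read on the gene's own strand from the same assembly, at chr5:15887830-15888079 (plus strand), and no base is capitalised because none of the motifs searched was found in it.
AQP6: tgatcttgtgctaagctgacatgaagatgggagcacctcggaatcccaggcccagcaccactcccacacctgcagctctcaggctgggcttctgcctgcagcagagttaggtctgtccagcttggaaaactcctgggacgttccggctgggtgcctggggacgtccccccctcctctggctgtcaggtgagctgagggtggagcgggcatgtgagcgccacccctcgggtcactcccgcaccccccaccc
The motifs searched on both strands were the GC box GGGCGG (in 39.5% of 26607 such windows), TATAAA (10.7%), CCAAT (31.7%), TGACGTCA, the cAMP response element (1.45%), and AGATAA (8.94%). None of these contains another.

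Compared per length over all 23 libraries, AQP1 or AQP2 was the most abundant member, depending on the label, and AQP4 the least. Median levels over the 23 libraries, in TPM, which scales each transcript's counts by its length and by depth, were 81.0 for AQP1 and 58.2 for AQP2, the apical water channel of principal cells. They were 36.2 for AQP3, its basolateral partner, and 24.5 for AQP6, an intracellular vesicle channel of intercalated cells. AQP7 of the proximal straight tubule followed at 12.9, and AQP11 of the endoplasmic reticulum at 9.66. AVPR1A (4.98) stood above AVPR2 (1.99), and AQP5, known from exocrine glands, was at 0.642. AQP4 had a median of 0.0537 TPM.

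Neighbours in that order were compared within libraries on log2(TPM + 0.1) with a 2-sided paired permutation test, adjusted over 9 pairs. AQP1 and AQP2 could not be separated (mean difference 0.30 ± 0.91 log2 units (SD, n = 23), adjusted permutation p = 0.125), and AQP1 was the higher in 13 of 23 libraries. Those 13 were 0 of 6 WT, 4 of 6 HET and 9 of 11 CF libraries. The median TPM of AQP1 and AQP2 was 50.9 and 84.5 in WT, 72.9 and 54.9 in HET, and 101 and 57.4 in CF libraries, so that the order of this pair was reversed in WT. AQP7 exceeded AQP11 in 13 of 23 libraries, with a mean difference of 0.39 log2 units and an adjusted permutation p = 0.0354. By label it was the higher in 4 of 6 WT, 5 of 6 HET and 4 of 11 CF libraries. On TMM-scaled counts per kilobase this pair was not separated (adjusted permutation p = 0.897), whereas AQP1 and AQP2 were (adjusted permutation p = 0.0320). The other 7 pairs differed under either scale. AVPR1A was above AVPR2 in 23 of 23 libraries, by a mean of 1.31 log2 units.

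**Figure D1:**
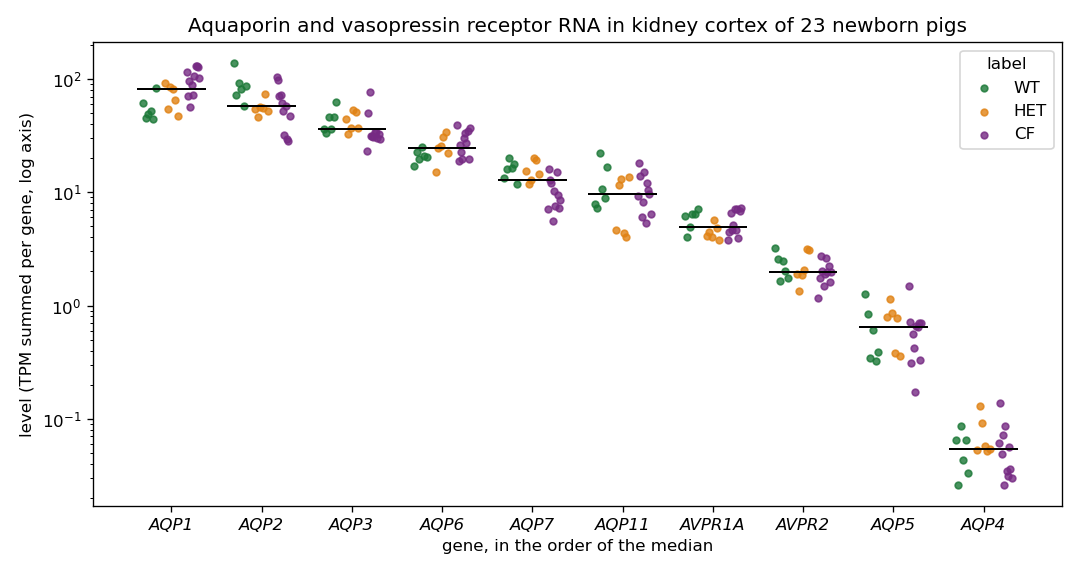
Level of each gene in TPM (log axis) in each of the 23 libraries, coloured by label, with the median over all libraries as a line. AQP1 and AQP2 share the top of the range, with medians of 81.0 and 58.2 TPM, and AQP4 sits at the bottom with 0.0537 TPM.

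The number of counts behind these levels differed widely. AQP1 had 4187 to 18649 counts per library and AQP2 861 to 4609. AVPR2 had 76 to 229 and AQP11 109 to 622. AQP5 had 4 to 51 and AQP4 4 to 18 counts, so that both sat near the limit of 3 counts in some libraries. The spread among the 23 libraries was smallest for AVPR1A (coefficient of variation 15.1% on CPM) and largest for AQP5 (57.7%). AQP3, AQP5 and AQP11 are each represented by a single short transcript (892, 877 and 851 bases), and 1 of 2 AQP2 transcripts has 821 bases, which enters their levels per length.

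AQP1 RNA was higher in CF libraries than in WT libraries, and the HET mean over both number sets lay between. WT levels were 160.8, 126.3, 120.8, 119.6, 108.0 and 202.8 CPM in pigs 12, 16, 17, 18, 22 and 23. HET levels were 250.3, 151.8, 242.6, 196.7, 176.6 and 140.3 CPM in pigs 13, 14, 15, 19, 20 and 21. CF levels had a minimum of 164.0, a median of 242.8 and a maximum of 399.3 CPM (n = 11). Of the 11 CF libraries, 8 were above the highest WT library, WT pig 23, and 11 were above the median WT library, but the groups overlapped. The WT mean was 140 ± 35.7 CPM (SD, n = 6), the HET mean 193 ± 45.8 CPM (SD, n = 6) and the CF mean 266 ± 76.3 CPM (SD, n = 11). The place of HET was unlike in the number sets. In set A the WT, HET and CF means were 132 (n = 4), 215 (n = 3) and 229 CPM (n = 6), with HET near CF. In set B they were 155 (n = 2), 171 (n = 3) and 311 CPM (n = 5), with HET near WT.

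For CF against WT the fitted log2 fold change of AQP1 was 0.93 (SE 0.19), or 1.91-fold, with an adjusted p = 0.0287 (edgeR quasi-likelihood test, Benjamini-Hochberg over 20921 genes). It was the single member of 10 called in this comparison, in which 73 of all tested genes (0.349%) were called. The call was lost without CF pig 7 (log2 fold change 0.91, edgeR adjusted p = 0.0540), without WT pig 12 (0.98, 0.0594), WT pig 16 (0.90, 0.0805), WT pig 17 (0.89, 0.0876), WT pig 18 (0.89, 0.0835) or WT pig 22 (0.87, 0.0569). Against all 12 non-CF libraries the log2 fold change was 0.68 (SE 0.16), or 1.60-fold, and the adjusted p = 0.0534 of edgeR missed the limit of 0.05. Without CF pig 2 (0.71, edgeR adjusted p = 0.0438), CF pig 4 (0.73, 0.0279), HET pig 13 (0.75, 0.0291) or HET pig 15 (0.74, 0.0337) it passed. CF against HET gave 0.46 (SE 0.18, edgeR unadjusted p = 0.0177, adjusted p = 0.410), and HET against WT 0.47 (SE 0.20, edgeR unadjusted p = 0.0318, adjusted p = 0.611). A fold change in bulk cortex RNA cannot tell more cells of a type from more RNA per cell.

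AQP7, a glycerol and water channel, had lower values in most CF libraries than in either other label and just missed the adjusted limit. WT levels were 22.5, 27.2, 30.6, 23.5, 26.7 and 20.1 CPM in pigs 12, 16, 17, 18, 22 and 23. HET levels were 25.6, 19.99, 23.6, 31.2, 30.6 and 27.2 CPM in pigs 13, 14, 15, 19, 20 and 21. CF levels ran from 11.0 to 27.6 CPM with a median of 15.2 CPM. In 7 of 11 CF libraries AQP7 was below each of the 12 non-CF libraries, and in 10 of 11 below their median. Only CF pig 2, the highest of that label, exceeded the non-CF median. Means were 25.1 ± 3.79 (SD, n = 6), 26.4 ± 4.26 (SD, n = 6) and 17.1 ± 5.55 CPM (SD, n = 11) for WT, HET and CF.

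The log2 fold change of AQP7 was -0.59 (SE 0.14) for CF against non-CF, or 0.663-fold, with an edgeR adjusted p = 0.0527, just outside the limit. It passed without CF pig 2 (-0.68, edgeR adjusted p = 0.0165), CF pig 3 (-0.62, 0.0491), CF pig 4 (-0.65, 0.0267), HET pig 13 (-0.59, 0.0498) or HET pig 15 (-0.60, 0.0436). Against WT alone it was -0.56 (SE 0.17, edgeR adjusted p = 0.112) and against HET alone -0.63 (SE 0.17, edgeR adjusted p = 0.235). HET against WT gave 0.07 (SE 0.19, 95% interval -0.33 to 0.47).

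The members' markers of origin were read beside these values. The summed level of 10 proximal tubule markers ran from 6811 to 9739 CPM in WT, from 7767 to 11400 CPM in HET and from 7223 to 13546 CPM in CF libraries, so the ranges overlapped. None of the 10 was called by edgeR in any of the 4 comparisons, with 1 at an unadjusted p under 0.05 in each and 1 called by DESeq2 for CF against WT, and their median log2 fold change for CF against non-CF was 0.05 (8 of 10 positive), with -0.00 over all genes. Against WT alone it was 0.14 (9 of 10 positive), and against HET alone -0.02 (4 of 10 positive). AQP1 is also a red cell protein, and 6 erythroid markers summed to 79.1 to 202 CPM in WT, 120 to 193 CPM in HET and 79.8 to 434 CPM in CF libraries. None of the 6 was called by edgeR, with 1 to 3 at an unadjusted p under 0.05 and at most 1 called by DESeq2. Their median log2 fold change was -0.25 for CF against non-CF (4 of 6 negative). It was -0.29 against HET alone (6 of 6 negative) and 0.03 against WT alone (3 of 6 negative). The sum of 6 endothelial markers was 536 to 703 CPM in WT, 587 to 696 CPM in HET and 483 to 842 CPM in CF libraries. None was called by edgeR or DESeq2, with at most 1 at an unadjusted p under 0.05. No marker of these 3 lists was at 0 in all libraries. Their part in the AQP1 and AQP7 values was not tested.

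The same direction was seen in the main AQP7 transcripts. The transcript with 65.0% of the gene's counts had a median of 16.4 CPM in non-CF and 9.31 CPM in CF libraries. The next, with 21.7%, had a median of 6.16 CPM in non-CF and 3.32 CPM in CF libraries. The model with 8.60% of counts, which reaches into NFX1, had 1.81 and 1.66 CPM. A single transcript made up 99.4% of AQP1 counts. NFX1, which overlaps AQP7 on the other strand, had a log2 fold change of 0.05 for CF against non-CF (edgeR adjusted p = 0.689).

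AQP6 was higher in most CF libraries than in WT libraries, without passing the adjusted limit. WT levels lay between 32.3 and 41.7 CPM (mean 36.4 ± 3.49, SD, n = 6), HET levels between 29.8 and 63.6 CPM (mean 47.4 ± 11.0, SD, n = 6) and CF levels between 36.1 and 89.2 CPM (mean 54.0 ± 17.7, SD, n = 11). Of 11 CF libraries, 8 exceeded each WT library, as did 5 of 6 HET libraries. AQP6 gave 0.57 on the log2 scale (SE 0.18, edgeR adjusted p = 0.133) for CF against WT and 0.37 (SE 0.15, edgeR adjusted p = 0.267) for CF against non-CF. The 8 intercalated cell markers summed to 273 to 379 CPM in WT (median 326), 304 to 441 CPM in HET (median 399) and 267 to 523 CPM in CF libraries (median 418). These medians had the order of the AQP6 means, but ATP6V1B1, a subunit of the vacuolar proton pump, makes up most of the sum. Its median was 219 CPM over the 23 libraries, beside 7.70 to 33.5 CPM for the other markers. Of the 8, 4 were positive for CF against WT (median log2 fold change 0.02) and 6 for HET against WT (median 0.20), with -0.00 over all genes in both. ATP6V1B1 was singled out after its values were seen and gave 0.55 for CF against WT (SE 0.13, edgeR unadjusted p = 0.000262, adjusted p = 0.0559). None of the 8 was called by edgeR, with at most 1 at an unadjusted p under 0.05 and at most 1 called by DESeq2 in a comparison. None was at 0 in all libraries, and their part in the AQP6 values was not tested.

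**Figure D2:**
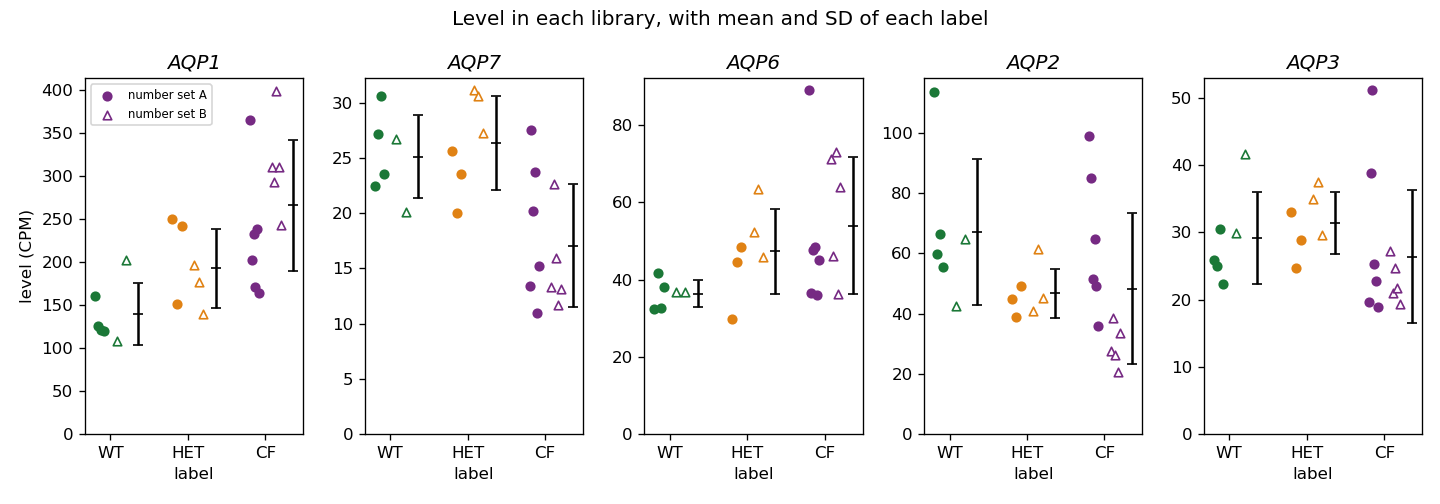
Level in CPM of 5 aquaporins in each library by label, with filled circles for number set A, open triangles for number set B, and the mean and SD of each label in black. The mean of AQP1 is 140 CPM in WT and 266 CPM in CF libraries, 7 of 11 CF libraries lie below each non-CF library for AQP7, and AQP2 is lowest in CF libraries of set B.

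AQP2, the vasopressin-regulated channel, did not differ between labels beyond its spread over all 23 libraries. WT levels were 113.5, 59.8, 66.5, 55.5, 42.7 and 64.8 CPM in pigs 12, 16, 17, 18, 22 and 23, and HET levels ran from 38.8 to 61.3 CPM. CF levels ran from 20.5 to 99.0 CPM with a median of 38.6 CPM. The lowest level was thus in a CF library and the highest in WT pig 12. The WT mean was 67.1 ± 24.2 CPM (SD, n = 6), the HET mean 46.7 ± 8.03 CPM (SD, n = 6) and the CF mean 48.3 ± 25.2 CPM (SD, n = 11). Its fitted log2 fold change was -0.47 (SE 0.26, edgeR adjusted p = 0.434) for CF against WT and -0.24 (SE 0.23, edgeR adjusted p = 0.712) for CF against non-CF. The latter was -0.39 without CF pig 1 and -0.10 without WT pig 12. HET against WT gave -0.52 (SE 0.30, edgeR adjusted p = 0.682), and CF against HET 0.05 (95% interval -0.50 to 0.60).

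AQP3 levels were 22.3 to 41.7 CPM in WT, 24.7 to 37.5 CPM in HET and 18.9 to 51.2 CPM in CF libraries. Its log2 fold change for CF against non-CF was -0.20 (95% interval -0.50 to 0.11), and -0.35 without CF pig 3 (edgeR unadjusted p = 0.00810, adjusted p = 0.182). Although CF pigs 3 and 2 were high, 9 of 11 CF libraries lay below the non-CF median. Neither AQP2 nor AQP3 passed the adjusted limit in any of the 4 comparisons over all 23 libraries. The 8 principal cell markers summed to 296 to 456 CPM in WT, 298 to 399 CPM in HET and 247 to 404 CPM in CF libraries. None was called by edgeR or DESeq2, at most 1 had an unadjusted p under 0.05, and none was at 0 in all libraries.

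The comparison of CF with non-CF was repeated within each number set. In set B, AQP2 ran from 20.5 to 38.6 CPM in the 5 CF libraries and from 40.8 to 64.8 CPM in the 5 non-CF libraries, and the groups did not overlap. In set A it ran from 36 to 99.0 CPM in 6 CF and from 38.8 to 113.5 CPM in 7 non-CF libraries. AQP3 in set B ran from 19.3 to 27.2 CPM in CF and from 29.6 to 41.7 CPM in non-CF libraries, again without overlap. AQP1 in set B ran from 242.8 to 399.3 CPM in CF and from 108.0 to 202.8 CPM in non-CF libraries, also without overlap. Of all tested genes, 4.64% had CF and non-CF libraries of set B that did not overlap.

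Fitted in set B alone, 4 of 10 members were called for CF against non-CF, where 2.27% of all genes were called. These were AQP1 (log2 fold change 0.92, SE 0.17, edgeR adjusted p = 0.0145), AQP7 (-0.82, SE 0.17, edgeR adjusted p = 0.0253), AQP3 (-0.60, SE 0.12, edgeR adjusted p = 0.0211) and AQP2 (-0.79, SE 0.17, edgeR adjusted p = 0.0291). In set B, CF against HET called AQP1, AQP3 and AQP7, where 2.56% of all genes were called. In set A alone no member was called and 0.0% of all genes were (0 of 21038 by edgeR, with 1958 at an unadjusted p under 0.05). Of the members, AQP6 and AQP7 had an unadjusted p under 0.05 there. There AQP1 gave a log2 fold change of 0.45 (SE 0.21), AQP7 -0.41 (SE 0.18), AQP3 0.12 (SE 0.21) and AQP2 0.07 (SE 0.25).

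A test of the difference itself, the CF effect in set B minus that in set A, gave -0.87 (SE 0.35, edgeR unadjusted p = 0.0204, adjusted p = 0.378) for AQP2 and -0.72 (SE 0.27, edgeR unadjusted p = 0.0138, adjusted p = 0.340) for AQP3. For AQP1 it gave 0.47 (SE 0.31, edgeR adjusted p = 0.640) and for AQP7 -0.41 (SE 0.27, edgeR adjusted p = 0.645). No member passed the adjusted limit for this difference, where 0.0191% of all genes did (4 of 20921) and 10.1% had an unadjusted p under 0.05. A dependence on the number set was thus not shown for any of the 10. With the number set as a term, AQP1 (0.65, edgeR adjusted p = 0.0490) and AQP7 (-0.59, edgeR adjusted p = 0.0468) passed for CF against non-CF, where 0.707% of all genes were called. The 8 principal cell markers summed to 296 to 382 CPM in CF and 296 to 343 CPM in non-CF libraries of set B. Of the 11 marker lists, 2 had sums that did not overlap there. The loop and distal tubule markers summed to 1342 to 1756 CPM in CF and 1804 to 2401 CPM in non-CF libraries, and the adipocyte markers to 4.51 to 5.99 CPM and 8.60 to 13.4 CPM. These 2 lists were thus lower in CF libraries of set B, as were AQP2 and AQP3, and the part of any of these cells in the values of AQP2, AQP3 and AQP7 was not tested.

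**Figure D3:**
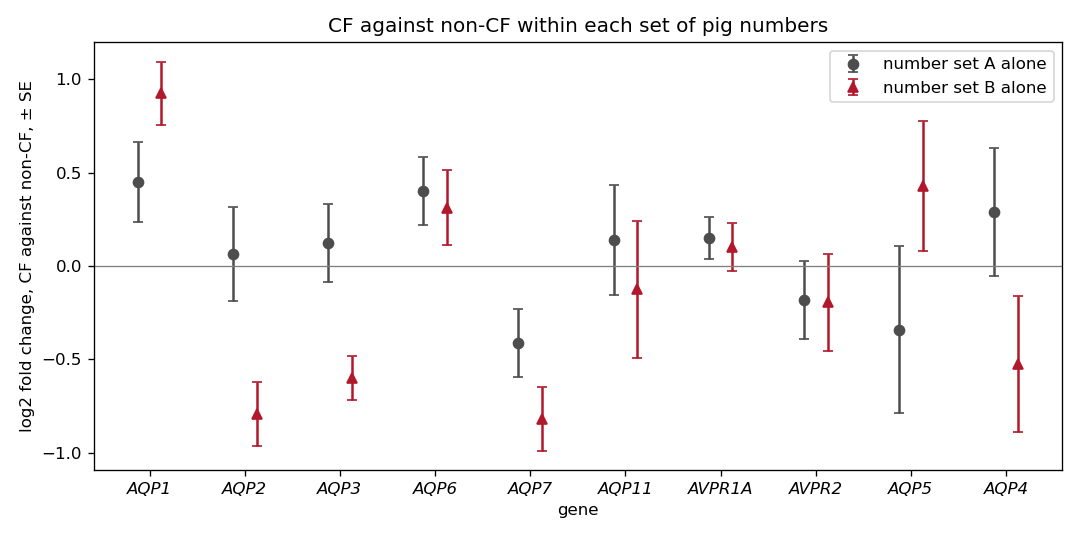
Log2 fold change of CF against non-CF with its SE for each gene, fitted in number set A alone (circles) and number set B alone (triangles). AQP2 and AQP3 lie at -0.79 and -0.60 in set B and at 0.07 and 0.12 in set A.

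Neither vasopressin receptor passed the adjusted limit in any of the 4 comparisons. AVPR2, the receptor upstream of AQP2, had 2.07 to 4.36 CPM in WT, 1.84 to 4.55 CPM in HET and 1.85 to 3.92 CPM in CF libraries, and the groups overlapped throughout. Its log2 fold change for CF against non-CF was -0.19 (SE 0.16, 95% interval -0.53 to 0.15), and -0.12 without either HET pig 20 or HET pig 21. AVPR1A had its lowest median in HET libraries, at 20.2 CPM, beside 25.4 CPM in WT and 23.4 CPM in CF libraries. HET levels were 19.03, 20.96, 19.5, 23.5, 22.5 and 18.96 CPM in pigs 13, 14, 15, 19, 20 and 21, WT levels ran from 18.9 to 29.3 CPM and CF levels from 20.3 to 29.3 CPM. In 11 of 11 CF libraries AVPR1A exceeded the HET median. CF against HET gave 0.25 (SE 0.10, edgeR unadjusted p = 0.0172, adjusted p = 0.410), where 0.0% of all genes were called, and HET against WT gave -0.24 (SE 0.11, edgeR unadjusted p = 0.0405, adjusted p = 0.624).

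The fits of AQP11, AQP5 and AQP4 had the widest intervals of the 10 genes. AQP11 levels were 5.13 to 13.7 CPM in WT, 2.68 to 10.2 CPM in HET and 3.89 to 13.3 CPM in CF libraries, and its log2 fold change for CF against non-CF was 0.02 (95% interval -0.50 to 0.54). AQP5 gave -0.09 (95% interval -0.75 to 0.58) and AQP4 -0.03 (95% interval -0.56 to 0.49).

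Over the 10 members, none was called for CF against non-CF, where 0.349% of all genes were called, and 3 (AQP1, AQP6 and AQP7) had an unadjusted p under 0.05 in edgeR, as 13.7% of all genes did. The exact Mann-Whitney U test likewise called 0 of 10 after adjustment, where 0.22% of all genes were called. The study names a Mann-Whitney U test, and its figure caption gives a cutoff of P < 0.05 without stating an adjustment. AQP1 and AQP7 had an exact p = 0.00218 each (adjusted 0.129), and were the 2 members with an unadjusted p under 0.05, as 11.6% of all genes had. For CF against WT, 3 members had an unadjusted p under 0.05, beside 14.1% of all genes. For CF against HET no member was called, as were 0.0% of all genes (0 by edgeR, with 9.89% at an unadjusted p under 0.05, and 65 genes by DESeq2). Of the members, AQP1, AQP7 and AVPR1A had an unadjusted p under 0.05 there. For HET against WT no member was called and 0.00478% of all genes were, with AQP1 and AVPR1A at an unadjusted p under 0.05, beside 7.99% of all genes. The members' median log2 fold change for CF against non-CF was -0.06, and that of all genes -0.00. The median size of the log2 fold change was 0.19 over the members and 0.09 over all genes.

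**Figure D4:**
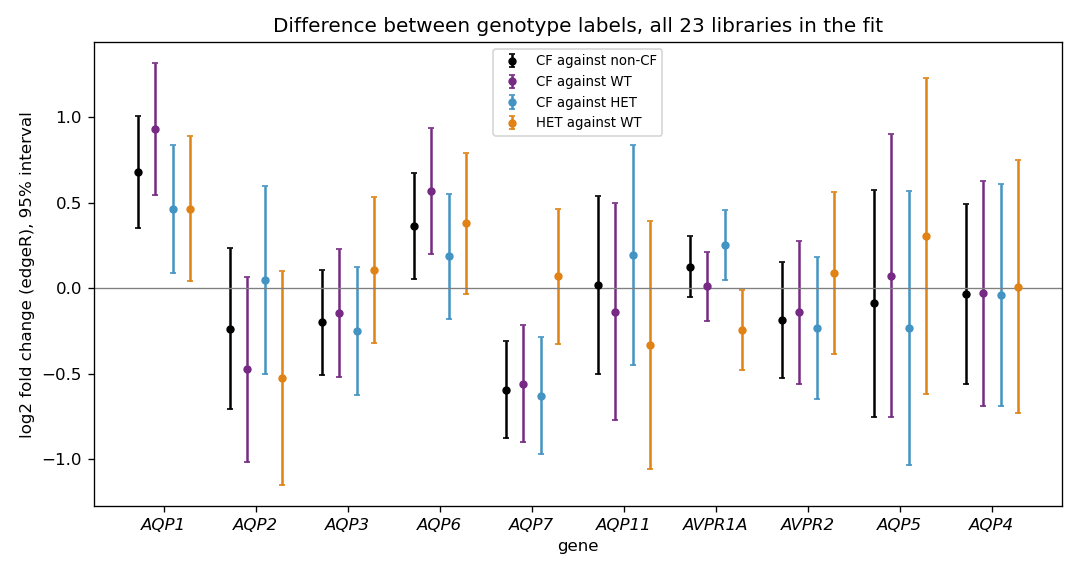
Log2 fold change with its 95% interval for each gene in 4 comparisons of the labels. The interval of AQP1 lies above 0 in each comparison, the intervals of AQP7 lie below 0 in the 3 comparisons with CF, and the intervals of AQP4 and AQP5 are the widest with those of AQP11.

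Genes around AQP1 were read in the same fit, since AQP1 shares chromosome 18 with CFTR. Within 250000 bases of AQP1, 6 genes were tested and none was called for CF against WT or CF against non-CF. LOC106508225, the noncoding gene that starts 65 bases away, had only 3 to 19 counts per library and a log2 fold change of 0.40 for CF against WT (edgeR adjusted p = 0.613). INMT, an indolethylamine N-methyltransferase, gave 0.79 (edgeR adjusted p = 0.326) and ADCYAP1R1, the PACAP receptor, 0.42 (edgeR adjusted p = 0.351). GARS, the glycyl-tRNA synthetase, was at -0.00. On chromosome 18 as a whole, 4 of 473 tested genes were called for CF against WT (0.846%, beside 0.333% on the other chromosomes), namely CFTR, AQP1, GPR37 and MEST. Without CFTR and AQP1, 2 of 471 were called (0.425%). Within the distance of AQP1 from CFTR, CFTR left out, 3 of 154 were called (1.95%), AQP1 among them, and beyond it 0 of 318. At an edgeR unadjusted p under 0.05 the shares were 22.1% within and 14.2% beyond. They were 18.2% and 14.5% for CF against non-CF, 11.0% and 10.7% for CF against HET, and 13.6% and 6.60% for HET against WT. The cause of these shares was not tested. For CF against non-CF, 1 of 473 was called (0.211%, beside 0.353% on the other chromosomes). This was GPR37, 5591234 bases from CFTR and so nearer to it than AQP1, and it was the 1 gene called of the 154 tested within the distance of AQP1 from CFTR, CFTR left out (0.649%). HET against WT called CFTR there and no gene elsewhere by edgeR (43 and 1621 at an unadjusted p under 0.05), and CF against HET called 0 genes by edgeR in either place (52 and 2007 at an unadjusted p under 0.05).

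The neighbours on chromosome 5 differed in sign. For CF against WT, AQP2 gave -0.47, AQP5 0.08 and AQP6 0.57 on the log2 scale. AQP3 and AQP7 on chromosome 10 were both negative for CF against non-CF (-0.20 and -0.59).

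Of 42 genes of vasopressin signalling and AQP2 traffic, all were tested and 1 was called by edgeR for CF against non-CF, a comparison in which 0.349% of all genes were called. In it, 4 of the 42 had an unadjusted p under 0.05 and DESeq2 called 2. The gene called by edgeR was CREB1, the cAMP-responsive transcription factor, at 0.32 (SE 0.06, edgeR adjusted p = 0.0197). None was called by edgeR in the other 3 comparisons, with 0 to 6 at an unadjusted p under 0.05 and at most 1 called by DESeq2. CREB1 kept its call with each library left out, and missed it in number set A alone (0.38, edgeR adjusted p = 0.152), in set B alone (0.25, edgeR adjusted p = 0.115) and on TPM (0.28, limma adjusted p = 0.269). The median of the list was -0.00 for CF against non-CF, the same as over all genes to 2 decimals. GNAS, the stimulatory G protein, gave -0.01, ADCY6, the adenylyl cyclase of the pathway, 0.02, and PRKACA, a catalytic subunit of protein kinase A, -0.13. Of 12 transcription factors of the collecting duct and of AQP2, none was called by edgeR or DESeq2 in any of the 4 comparisons, 1 had an unadjusted p under 0.05 (HET against WT), and the median was 0.08 for CF against non-CF. Of 10 other aquaporin and neurohypophyseal genes, 8 were in the table and 2 passed the filter. These were AVPR1B and OXTR, the oxytocin receptor, with medians of 0.601 and 1.16 TPM, no call by edgeR or DESeq2 and 1 unadjusted p under 0.05 for HET against WT. AQP8 reached at most 2 counts in a library and the hormone gene AVP at most 9 counts.

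Markers of the other cell types were read in the same way for CF against non-CF. The 8 markers of the loop and distal tubule had a median log2 fold change of -0.20 and ranged from -1.40 to 0.28. None was called by edgeR, but 4 had an unadjusted p under 0.05 and DESeq2 called 3. Their sum was 1478 to 2192 CPM in WT, 1289 to 2401 CPM in HET and 1237 to 1938 CPM in CF libraries. Medians were 0.01 for 4 podocyte markers, -0.02 for 5 mural and mesangial markers and -0.08 for 4 inner medulla markers, with no call and no unadjusted p under 0.05 in edgeR and no call in DESeq2. For 3 tested urothelial markers of 5 the median was 0.41, and for 2 tested adipocyte markers of 4 it was -0.41, each with no call and 1 unadjusted p under 0.05 in edgeR. These markers were low, with sums of at most 24.6 CPM for the urothelium and 39.2 CPM for adipocytes. No marker was at 0 in all libraries, and the part of these cells in the members' values was not tested.

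Relations among the members were read on log2 CPM with the mean of each label removed. Over 23 libraries, 0 of 45 pairs of members had an adjusted permutation p under 0.05. The strongest were AQP2 with AQP5 (Pearson r = 0.47, permutation p = 0.0258, adjusted 0.404, Spearman rho = 0.30, permutation p = 0.164) and AQP3 with AQP7 (r = 0.46, permutation p = 0.0275, adjusted 0.404, rho = 0.47, permutation p = 0.0238). Without the 2 libraries farthest from the median of the first gene, r fell to 0.24 for both pairs. AQP2 and AQP5, next to each other on chromosome 5, reached r = 0.83 within set A (n = 13), 0.63 within set B (n = 10) and 0.78 with label and set means removed. Adjusted over 45 pairs, the permutation p was 0.0216 in set A and 0.00045 with set means removed. The latter is from the smallest p the permutations can give, 1e-05. With the label as a term, AQP2 and AQP5 had log2 differences between set B and set A of -0.62 and -0.58, beside -0.42 to 0.34 for the central 90% of all genes. By label these differences were unlike. The median of AQP2 was 58.1 CPM in set A and 27.6 CPM in set B for CF libraries, and 55.5 and 45.3 CPM for non-CF libraries. The median of AQP5 was 0.373 and 0.442 CPM for CF libraries, and 0.619 and 0.254 CPM for non-CF libraries. AQP5 rests on 4 to 51 counts. Within set B, 2 other pairs passed with an adjusted permutation p of 0.0367 each. These were AQP5 with AQP6 (r = 0.87, beside 0.50 in set A) and AQP4 with AVPR1A (r = -0.86, beside 0.04 in set A, with 4 to 18 counts for AQP4).

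Against the mean of segment markers, 0 of 40 relations had an adjusted permutation p under 0.05. The principal cell mean gave r = 0.54 with AQP2 (permutation p = 0.00764, adjusted 0.153, rho = 0.57, permutation p = 0.00570), which was 0.55 without the 2 farthest libraries, 0.59 within set A and -0.07 within set B. It gave r = 0.56 with AQP5 (permutation p = 0.00598, adjusted 0.153, rho = 0.48, permutation p = 0.0213), with 0.42 without the 2 farthest libraries, 0.69 within set A and -0.08 within set B.

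Genes whose pattern over the 23 libraries was most like a member, with label means removed, were the highest of 18011 correlations each and are given as a description. AQP2 was most like FZD4, a Wnt receptor (r = 0.83), and AQP5 most like TULP4 (r = 0.86). AQP6 was most like SLC16A13, a monocarboxylate transporter family member (r = 0.84). AQP3 was most like S100G, the vitamin D-dependent calcium-binding protein calbindin-D9k (r = 0.76), which was second for AQP7 (r = 0.76). AQP1 was most like GDF15, a stress-induced cytokine (r = 0.76), and AVPR2 most like BMP3 (r = 0.69).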

How the data were processed

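Kidney cortex RNA-Seq libraries of 23 newborn pigs were grouped by the genotype in their labels. The authors prepared stranded total RNA libraries, pseudoaligned reads to Sscrofa11.1 transcripts with kallisto and deposited an estimated count and a TPM value for each of 77689 transcripts. The estimated counts the authors deposited are not normalized. Deposited TPM are scaled per library, and 1 noncoding transcript took 42.1% to 53.2% of each sum. Here estimated counts were summed per symbol and rounded (63.0% of transcript values were not whole, at a tolerance of 1e-06). Depth was 32901281 to 52952273 per library.

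Genes passing filterByExpr (CF against non-CF, 20921 of 25476 with a count) were tested with edgeR 4.0.16 in R 4.3.3 (TMM, quasi-likelihood, Benjamini-Hochberg, limit 0.05). Pairwise comparisons shared 1 fit of all 3 labels. Log2 CPM used a prior count of 2. Alternatives were DESeq2 1.42.0, limma-voom (limma 3.58.1), other scalings and filters, TPM with a pseudocount of 0.1, number sets, each library left out, and an exact Mann-Whitney U test (scipy 1.17.1, Python 3.11.15). Permutation tests were 2-sided with 100000 resamples. Scripts were tested on simulated data.

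The 10 members and all lists were chosen with earlier results of these data known. Named are the members, CFTR, listed genes past the limit or given as examples of level or fold change, and the genes most like each member (median of at least 1 CPM). Genes around AQP1 and those called on chromosome 18 were named after their values were seen. No protein sequence table was used here, and the sequence before AQP1 is not reported here.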

Additional observations from a re-analysis of the deposited data

Results flagged for a closer look

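The groups of 6 libraries labelled HET and WT were screened for a library far from the others, 20 groups in all, of which chance flags about 1 in 20. In the WT group, pig 12 stood apart for AQP2 with 113.5 CPM, where the other 5 libraries lay between 42.7 and 66.5 CPM. Without it the log2 fold change of AQP2 was -0.10 for CF against non-CF (edgeR adjusted p = 0.891). In the HET group, pig 14 stood apart for AQP4 with 0.123 CPM, which rests on 6 counts. No member's CF effect differed between number sets at an adjusted p under 0.05.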

How the results depend on the processing

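For CF against non-CF, where edgeR called 0 of 10 members, DESeq2 called 2, limma-voom 1, upper-quartile scaling 1, a filter of at least 1 CPM in 6 libraries 2 (of the 8 members it kept), the number set as a term 2 and number set B alone 4. RLE scaling, no filter, TPM, number set A alone and the Mann-Whitney test called 0. Over the 23 left-out libraries the count ran from 0 to 2. Over all genes, where edgeR called 73 for CF against non-CF, DESeq2 called 515, limma-voom 46, upper-quartile scaling 101, RLE scaling 85, no filter 65, a minimum of 1 CPM in 6 libraries 150, the number set as a term 148, TPM 8, set A alone 0 and set B alone 473, and leaving out 1 library gave 17 (HET pig 21) to 203 (CF pig 4). For CF against WT, where edgeR also called 73, DESeq2 called 576, upper-quartile scaling 139, the 1 CPM minimum 140, the number set as a term 186 and set A alone 33, and leaving out 1 library gave 20 (WT pig 12) to 203 (CF pig 4). CF against HET (0 by edgeR) gave 65 with DESeq2 and 535 in set B alone, and HET against WT (1 by edgeR) 33 with DESeq2, 14 in set A alone and 18 in set B alone. For CF against WT the count of 1 became 3 with DESeq2 and 0 in number set A or number set B alone, and ran from 0 to 1 with libraries left out. For CF against HET, 0 became 3 in number set B alone. HET against WT stayed at 0 under the 10 alternatives and each left-out library.

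AQP1 kept a positive sign under the 10 other fits, at 0.45 to 0.92 for CF against non-CF, 0.79 to 1.02 for CF against WT, 0.09 to 0.87 for CF against HET and 0.15 to 0.70 for HET against WT. For CF against HET the lowest value was in set A alone and the highest in set B alone, and for HET against WT the reverse held. AQP7 stayed negative at -0.82 to -0.41 for CF against non-CF. Its adjusted p ran from 0.00481 to 0.508 and that of AQP1 from 0.00415 to 0.541 (edgeR, limma or DESeq2). Signs turned for CF against non-CF in number set A alone for AQP2 (0.066), AQP3 (0.12) and AQP4 (0.29), and in number set B alone for AQP5 (0.43) and AQP11 (-0.13). With libraries left out, the values ran from -0.12 to 0.046 for AQP4, from -0.36 to 0.027 for AQP5 and from -0.11 to 0.15 for AQP11. The pair AQP3 and AQP7 had r = -0.21 in number set B alone. Of 45 pairs of members, 1 passed in set A alone, 2 in set B alone and 1 with label and set means removed. On TPM the median of all genes was -0.13 for HET against WT and -0.09 for CF against WT, where edgeR gave -0.00 for both. The cause of these differences was not tested. No paired analysis was possible because the litter of each pig is not given in the sources used here. The fits thus treat pigs that may be littermates as independent.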
